A study of Mus musculus with 24 samples.

Results

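The Cyp2c genes Cyp2c29, Cyp2c38 and Cyp2c39 were followed through 9 consecutive 100 kb bins of mouse chromosome 19 (chr19:38900001-39800000, mm10) out of 27268 bins counted genome-wide. At the centre of these lay a block of 2 bins (chr19:39200001-39400000), the first and the second block bin. The block was chosen by its read level in input, and the 7 bins around it served as its surroundings. The KO to WT difference in input is therefore a description with no test, while H2AX and gH2AX were measured in other libraries and were tested. Whether input and precipitated libraries were made from the same chromatin is not labelled. These tests may therefore not be independent of the values that chose the block. The tests of H2AX and of gH2AX also used counts not divided by input. A rise in them where input rose may hold the input difference itself and is not separate evidence on the mark.

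Primary mouse embryonic fibroblasts (MEFs) of the C57BL6 strain were either SIRT7-KO or WT, and each genotype was sampled as female and as male cells. SIRT7 is an NAD-dependent deacetylase of the sirtuin family. Chromatin was precipitated with an antibody to the histone variant H2AX or to its phosphorylated form gH2AX, or was kept as input, the sonicated chromatin before precipitation. All cells, WT included, had received 5 Gy of X-rays and recovered for 30 min, and no labelled sample was unirradiated. The 12 groups of antibody or input, sex and genotype held 2 libraries each. The knockout allele, the embryonic stage and the number of embryos are not given in the sources used here. Whether both libraries of a group stem from independent cultures is not labelled, so p-values cover only the spread between these libraries, which may be technical. KO and WT cells of 1 sex also came from different animals, so a genotype difference cannot be told apart from one between animals or cultures. A 100 kb bin cannot show the loss of part of Sirt7, and DNA libraries cannot show whether fibroblast markers were expressed.

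Cyp2c genes encode cytochrome P450 enzymes, haem proteins that oxidise drugs, steroids, retinoids and arachidonic acid, chiefly in liver and gut. In rodents the family has grown by tandem duplication, so that neighbouring genes are close in sequence. H2AX is a variant of histone H2A that is spread through the genome and is phosphorylated in the chromatin around DNA double-strand breaks, whereas reads in input follow the amount of DNA that can be recovered and mapped at a place.

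The annotation (RefSeq, GRCm38.p6) placed the 3 genes unevenly over the bins. Cyp2c29 (chr19:39287044-39330713, gene ID 13095), an abundant liver enzyme in mouse, lay wholly in the block, with 70.3% of its length in the second block bin and 29.7% in the first. Of Cyp2c39 (chr19:39347346-39569568, gene ID 13098), known as a retinoic acid hydroxylase, 23.7% lay in the block, since its annotated span runs from a distal start in the second block bin past a proximal start 2 bins further on. Of Cyp2c38 (chr19:39389556-39463103, gene ID 13097), an arachidonic acid epoxygenase on the minus strand, 14.2% lay in the block, which is the end of the gene and not its start. The block also held the pseudogenes Cyp2c53-ps and Cyp2c72-ps. Values of a 100 kb bin are not specific to any of these genes.

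The starts of the 3 genes are shown because their likeness bears on where a read can be placed. Each line gives the 100 bases before an annotated start, 5′ to 3′ on the gene's own strand, from RefSeq GRCm38.p6, with the letters TATAAAA in capitals. The positions are chr19:39286985-39287084 (plus strand) for Cyp2c29, chr19:39347246-39347345 (plus) for the distal Cyp2c39 start, chr19:39463076-39463175 (minus) for Cyp2c38 and chr19:39510722-39510821 (plus) for the proximal Cyp2c39 start.
Cyp2c29: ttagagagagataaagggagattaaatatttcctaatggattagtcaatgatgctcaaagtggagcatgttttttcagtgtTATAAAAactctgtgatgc
Cyp2c39 distal: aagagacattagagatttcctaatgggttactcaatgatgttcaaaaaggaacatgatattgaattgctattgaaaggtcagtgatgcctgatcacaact
Cyp2c38: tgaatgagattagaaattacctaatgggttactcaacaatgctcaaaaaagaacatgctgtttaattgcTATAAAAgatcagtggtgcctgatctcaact
Cyp2c39 proximal: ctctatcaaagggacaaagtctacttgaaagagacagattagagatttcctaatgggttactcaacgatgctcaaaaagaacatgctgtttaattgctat

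Of these starts, the first pair lay in the block and the second pair outside it. The 250 bases before each start were aligned, and identity was taken over the aligned columns without unpaired ends. The number of such columns differed between pairs. The distal and proximal Cyp2c39 starts were 89.7% identical over 223 columns and shared an unbroken run of 86 bases. Cyp2c29 was 79.3% and 79.5% identical to the distal and the proximal Cyp2c39 start and 74.8% identical to Cyp2c38. Against the starts of 10 other Cyp2c genes Cyp2c29 was 54.6% to 64.3% identical. TATAAAA was searched in windows of 250 bases before and 50 after the start, for these starts on the gene's own strand only. It was found at Cyp2c29 (first base at position -19 from the start), at Cyp2c38 (position -31) and, crossing the annotated start, at the proximal Cyp2c39 start (position -3). It was not on that strand in the window of the distal start. Of 32851 annotated starts 5.48% held it on either strand, a wider search than that of the 3 genes. How reads with several alignments were handled is not given in the sources used here, so reads from stretches shared between copies, such as the run common to both Cyp2c39 starts, may have been counted at another copy.

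The libraries held 66.9 to 250 M (mega) reads for H2AX, 84.5 to 212 M for gH2AX and 92.4 to 269 M for input. The bins of the window had 2199 to 9419 reads in H2AX, 1917 to 8053 in gH2AX and 2594 to 9539 in input libraries, for which counting error alone is 1.02% to 2.28% of the value. Levels are given as CPM, counts per M reads after TMM normalisation on the autosomes.

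In input, the second block bin was higher in male KO cells than in any other group, and the first block bin was higher there by less. The second block bin, with most of Cyp2c29, had 33.8 and 31.9 CPM in male KO input, against 26.0 and 25.6 CPM in male WT input. It had 25.8 and 25.0 CPM in female KO input, against 25.7 and 25.8 CPM in female WT input. Both male KO libraries thus stood above the other 6 input libraries, none of which passed 26.0 CPM. The KO to WT ratio was 1.27 in male cells and 0.985 in female cells, which is 0.34 ± 0.04 and -0.02 ± 0.04 on the log2 scale (fitted change ± SE, as for all log2 changes here).

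The first block bin, which holds the start of Cyp2c29 and Cyp2c53-ps, had 37.3 and 37.3 CPM in male KO input, against 33.9 and 33.8 CPM in male WT input. In female cells it had 33.5 and 34.0 CPM in KO input, against 31.9 and 33.2 CPM in WT input. The groups did not overlap in either sex, and the ratios were 1.10 in male and 1.04 in female cells (log2 0.14 ± 0.03 and 0.06 ± 0.03). In both block bins male KO libraries lay above male WT libraries, an order that 17.7% of all 25703 bins showed in male and 18.1% in female input. A rise of 0.25 or more on the log2 scale, which the second block bin reached, was found in 0.035% of bins in male cells. These shares give the background and support nothing, since the block was chosen on these values.

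The bins next to the block differed by less in input. The bin before it, which holds Cyp2c66, changed by 0.08 ± 0.03 in male cells and the bin after it, which holds most of Cyp2c38 and the largest share of Cyp2c39, by 0.08 ± 0.04. Over the 7 surrounding bins the male change ran between -0.01 and 0.11 with a median of 0.08, while the median of all bins was 0.00. In female cells the same bins ran between -0.07 and 0.02. Set against the 7 surrounding bins of its own libraries, the second block bin reached 0.896 ± 0.0417 of their mean level in male KO input, against 0.730 ± 0.0105 in male WT input (SD, n = 2 each). It reached 0.717 ± 0.0134 in female KO input, against 0.721 ± 0.00518 in female WT input. In every group the second block bin was thus below its surroundings, and in male KO input by less than in the other 3 groups. The first block bin reached 1.02 ± 0.00506 in male KO input, against 0.958 ± 0.00338 in male WT input. In female cells it reached 0.954 ± 0.0137 in KO input, against 0.911 ± 0.0178 in WT input. On this scale its KO to WT ratio was 1.06 in male and 1.05 in female cells, so it differed little between the sexes.

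**Figure D1:**
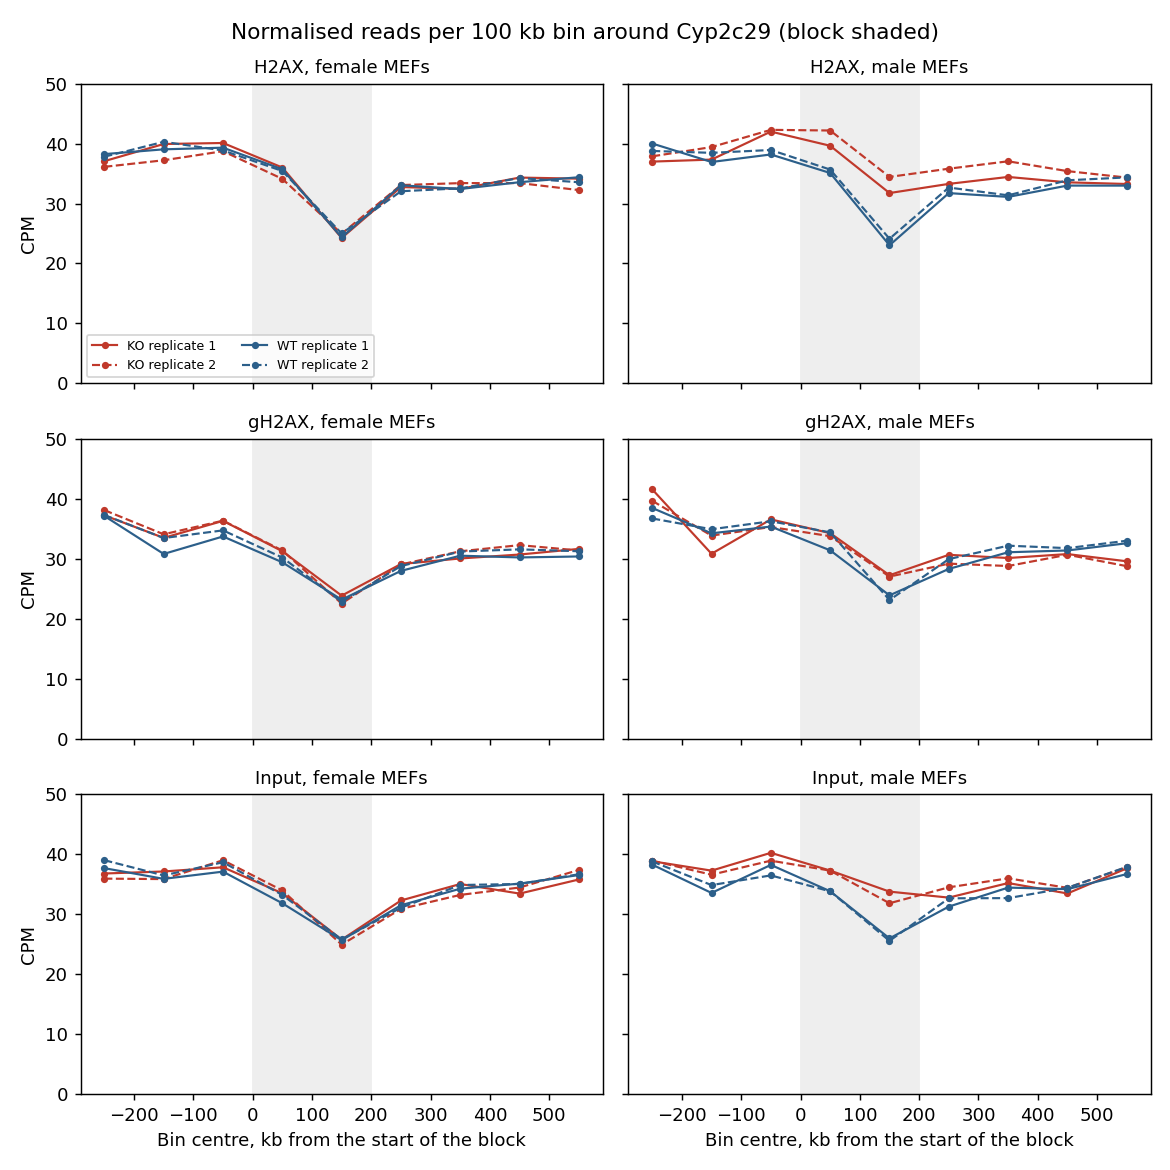
Normalised reads (CPM, y axis) in each of the 9 bins by distance of the bin's centre from the start of the block in kb (x axis), for H2AX, gH2AX and input in female and male MEFs, with 1 line per library (KO red, WT blue, replicates solid and dashed) and the block shaded. In the second block bin the male KO lines stand at 31.7 and 34.4 CPM in H2AX, 27.3 and 27.1 CPM in gH2AX and 33.8 and 31.9 CPM in input, above both male WT lines in each, while the female lines lie together.

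H2AX was higher in male KO cells in the block bins of Cyp2c29 and did not pass the test in female cells. The second block bin had 31.7 and 34.4 CPM in male KO libraries, against 23.0 and 24.1 CPM in male WT libraries. In female cells it had 24.2 and 25.0 CPM in KO libraries, against 24.4 and 25.0 CPM in WT libraries. Male KO thus stood above the other 3 groups, of which female KO and female WT overlapped and male WT lay just below them. H2AX rose 1.40-fold in male KO over male WT there, a log2 change of 0.48 ± 0.04 (edgeR quasi-likelihood test, adjusted p = 1.77e-14 over 25703 bins). The female change was -0.01 ± 0.04 (adjusted p = 0.991), with a 95% interval of -0.09 to 0.08, and 0.152% of all bins were called in either direction in female cells.

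The first block bin had 39.6 and 42.2 CPM of H2AX in male KO libraries, against 35.1 and 35.7 CPM in male WT libraries. In female cells it had 36.0 and 34.1 CPM in KO libraries, against 35.7 and 35.4 CPM in WT libraries. The male groups did not overlap and the female groups did. The male change was 0.20 ± 0.04 (adjusted p = 4.88e-04) and the female change -0.02 ± 0.04 (adjusted p = 0.987), by the same edgeR test. The male call did not hold without 1 of the 4 libraries in 2 cases, with 0.17 (adjusted p = 0.0551) without male KO replicate 2 and 0.19 (adjusted p = 0.0746) without male WT replicate 1. In male cells 3 of the 9 bins of the window were called higher for H2AX, both block bins among them, beside 0.105% of all bins called higher and 0.0856% called lower. The order of male KO above male WT libraries, seen in both block bins, was shown by 16.6% of all bins for H2AX, and a rise of at least 0.25 (log2), which the second block bin exceeded, by 0.0584%.

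The male and female KO changes of H2AX differed in both block bins. The female change minus the male change was -0.49 ± 0.06 in the second block bin (edgeR, adjusted p = 6.62e-09) and -0.22 ± 0.05 in the first (adjusted p = 0.0214), beside 0.195% of all bins where this difference was called lower. In input, which was not tested, the same difference was -0.36 ± 0.06 in the second and -0.09 ± 0.05 in the first block bin. The call in the first block bin held only without replicate 1 of female KO or of male KO, was lost without any of the other 6 libraries (adjusted p between 0.106 and 0.539) and was lost in DESeq2 (adjusted p = 0.0947). Within KO, female minus male H2AX was -0.42 ± 0.04 and -0.22 ± 0.04 in the second and first block bins (adjusted p = 1.63e-14 and 1.42e-06), beside 0.576% of bins called lower. Within WT it was 0.06 ± 0.04 and 0.01 ± 0.04 (adjusted p = 0.479 and 0.95), with 95% intervals of -0.02 to 0.15 and -0.07 to 0.08, beside 8.94% of bins called in either direction. Female minus male input, not tested, was -0.37 ± 0.04 and -0.15 ± 0.04 within KO in the second and first block bins. Within WT, input had -0.002 ± 0.04 and -0.06 ± 0.03. In the second block bin the H2AX level thus ran in the order of male KO (33.1 ± 1.90 CPM), female WT (24.7 ± 0.458), female KO (24.6 ± 0.507) and male WT (23.6 ± 0.770; SD, n = 2 each), and neither pair tested among the last 3, female KO with female WT and female WT with male WT, passed the test.

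gH2AX was higher in male KO cells in the second block bin, by less than H2AX, and the first block bin did not pass the test. The second block bin had 27.3 and 27.1 CPM in male KO libraries, against 23.9 and 23.1 CPM in male WT libraries. In female cells it had 23.9 and 22.6 CPM in KO libraries, against 23.2 and 22.8 CPM in WT libraries. Both male KO libraries lay above the other 6, and 35.2% of all bins had both male KO above both male WT libraries. The male change was 0.21 ± 0.05 (edgeR, adjusted p = 9.64e-05 over 25702 bins) and the female change 0.01 ± 0.05 (adjusted p = 0.931), with a female 95% interval of -0.08 to 0.11 and 1.01% of all bins called in either direction in female cells.

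In the first block bin gH2AX had 34.3 and 33.8 CPM in male KO libraries, against 31.4 and 34.4 CPM in male WT libraries. It had 31.3 and 31.4 CPM in female KO libraries, against 29.4 and 30.2 CPM in female WT libraries. The male groups overlapped, whereas both female KO libraries lay above both female WT libraries, as in 23.1% of all bins. The changes were 0.05 ± 0.04 in male (edgeR, adjusted p = 0.279) and 0.07 ± 0.04 in female cells (adjusted p = 0.432), with 95% intervals of -0.03 to 0.13 and -0.01 to 0.15.

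Calls for gH2AX in male cells were common genome-wide. Of the 9 window bins 2 were called higher, one of them the second block bin, and 2 lower, beside 22.4% of all bins called higher and 22.2% called lower, so the count of window bins is near the background. A rise of at least 0.25 (log2), which neither block bin reached for gH2AX, was found in 0.191% of bins. The female KO change minus the male one was -0.19 ± 0.07 in the second block bin (edgeR, adjusted p = 0.0133), beside 20.4% of bins called lower, and 0.02 ± 0.06 in the first (adjusted p = 0.827). For input this difference was -0.36 ± 0.06 and -0.09 ± 0.05, not tested. The call in the second block bin did not hold without female KO replicate 2 (-0.15, adjusted p = 0.106) or male WT replicate 2 (-0.17, adjusted p = 0.0598), nor with library sizes from chromosome 19 (-0.14, adjusted p = 0.0664). Within KO, female minus male gH2AX was -0.23 ± 0.05 in the second block bin (adjusted p = 1.28e-05) and -0.12 ± 0.04 in the first (adjusted p = 0.0189), beside 12.6% of bins called lower. Within WT it was -0.03 ± 0.05 (adjusted p = 0.646) and -0.14 ± 0.04 (adjusted p = 0.00914), beside 7.53% of bins called lower. In the first block bin gH2AX was therefore lower in female than in male cells in both genotypes. Female minus male input in the same bin was -0.15 ± 0.04 within KO and -0.06 ± 0.03 within WT, not tested. In that bin the KO call was lost without any 1 of its 4 libraries (adjusted p between 0.0671 and 0.103), and the WT call without female WT replicate 1 (adjusted p = 0.101) or male WT replicate 2 (-0.07, adjusted p = 0.355).

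**Figure D2:**
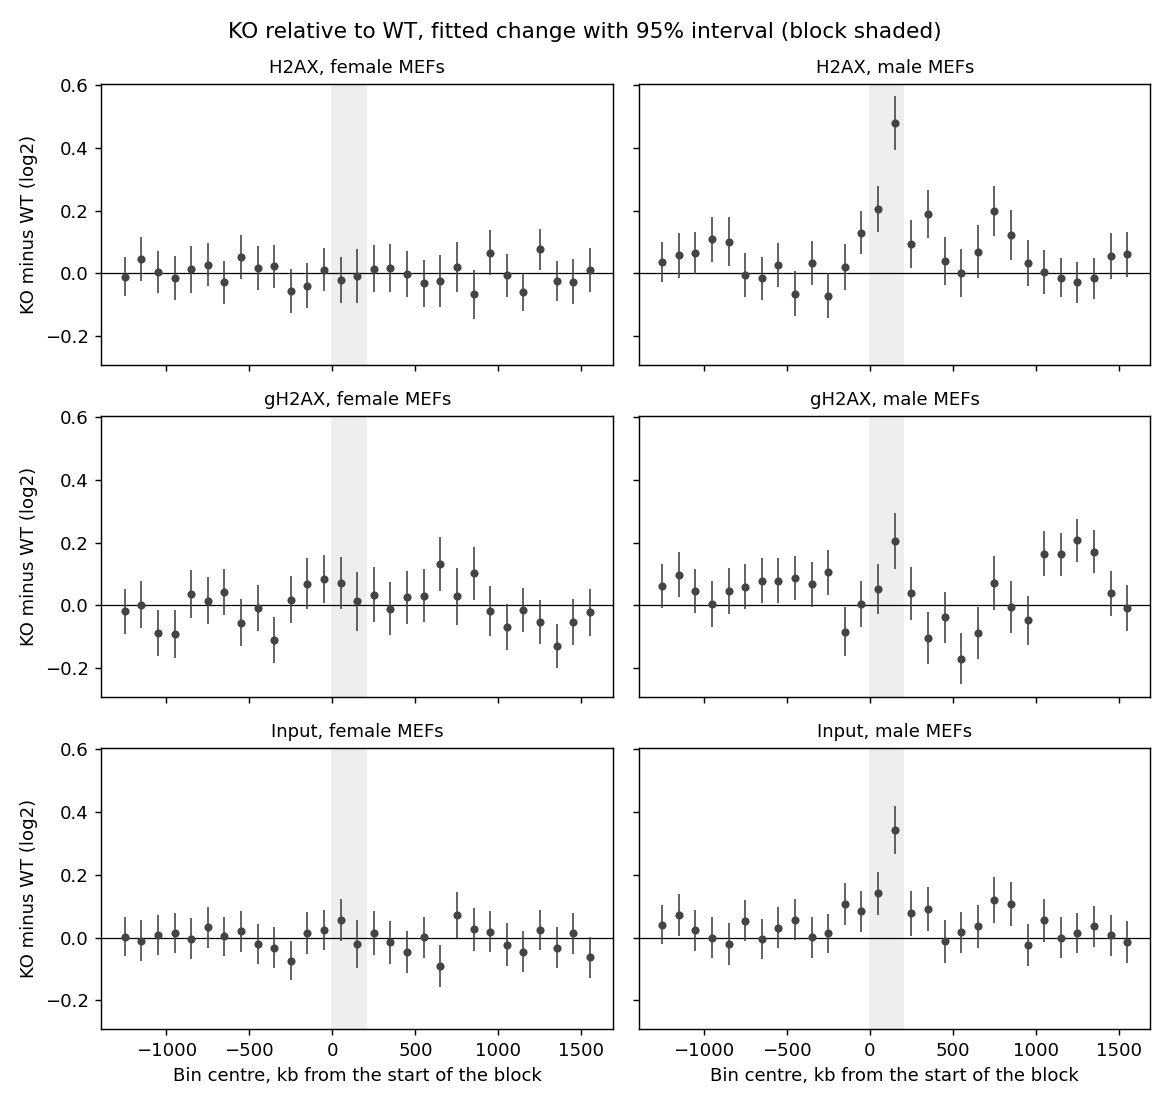
Fitted KO minus WT change (log2, y axis) with its 95% interval in each 100 kb bin of the window and of the stretches beside it (x axis, distance of the bin's centre from the start of the block in kb), for H2AX, gH2AX and input in female and male MEFs, with the block shaded. In male cells the second block bin stands above all others shown for H2AX (0.48) and input (0.34), and for gH2AX (0.21) a group of bins further along the chromosome reaches a like height.

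Set against the surrounding bins of the same library, the block stood highest in male KO libraries in every assay. The log2 ratio of block reads to the reads of the 7 other window bins was -1.81 and -1.77 in male KO H2AX libraries, against -2.07 and -2.05 in male WT ones. It was -1.90 and -1.90 in male KO gH2AX libraries, against -2.07 and -2.03 in male WT ones, and -1.85 and -1.90 in male KO input, against -2.04 and -2.06 in male WT input. The 12 female libraries, KO and WT, lay between -2.11 and -2.04, so that no male KO library overlapped any other. Over both sexes the 4 KO libraries averaged -1.92 ± 0.150 for H2AX, against -2.06 ± 0.0100 in the 4 WT libraries (SD), a difference of 0.13 (exact two-sided permutation test, p = 0.2). For gH2AX the averages were -1.99 ± 0.107 in KO and -2.07 ± 0.0315 in WT, a difference of 0.08 (exact two-sided permutation test, p = 0.286). The smallest p such a split of 4 against 4 allows is 0.0286. In both assays the male and the female KO libraries stood apart. A split that pools the sexes can therefore not decide on a change limited to male KO libraries, and no conclusion is drawn from it.

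**Figure D3:**
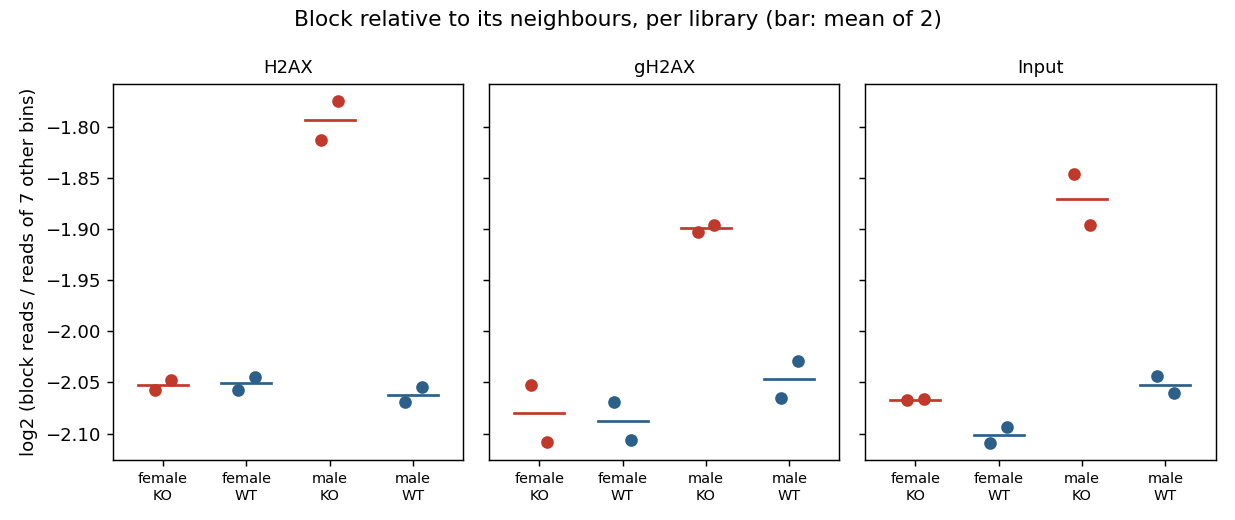
Log2 ratio of the reads in the 2 block bins to those in the 7 other window bins (y axis) in each library, by sex and genotype (x axis, KO red, WT blue), for H2AX, gH2AX and input, with the mean of the 2 libraries as a bar. The male KO libraries lie between -1.90 and -1.77, and the other 18 libraries between -2.11 and -2.03.

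How far each mark went with input was read from the difference of the changes, fitted over all 24 libraries. These ratios to input contain the values by which the block was chosen, so they are given without a test. In the second block bin of male cells H2AX changed by 0.48 beside 0.34 in input, and H2AX over input changed by 0.13 ± 0.06. gH2AX changed by 0.21 there, and gH2AX over input by -0.14 ± 0.06, or by -0.04 when the trend of each library on enrichment over input was removed. H2AX thus changed by somewhat more and gH2AX by somewhat less than input, both in the direction of input. In the first block bin the male changes were 0.06 ± 0.05 for H2AX over input and -0.09 ± 0.05 for gH2AX over input. In female cells the ratios in the second and first block bins were 0.02 ± 0.06 and -0.07 ± 0.05 for H2AX over input, and 0.03 ± 0.06 and 0.02 ± 0.05 for gH2AX over input.

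The ratio of gH2AX to H2AX uses no input library and was tested. In male cells it was lower in KO in the second block bin (-0.27 ± 0.06, edgeR adjusted p = 4.32e-04) and in the first (-0.15 ± 0.05, adjusted p = 0.025). In female cells it was 0.02 ± 0.06 and 0.09 ± 0.05 (adjusted p = 0.928 and 0.486), where 0.237% of all bins were called in either direction. In the male comparison 5 of the 9 window bins were called lower and 1 higher, beside 14.3% of all bins called lower and 15.9% called higher. The 7 surrounding bins had a median male change of -0.10 in this ratio, ranging between -0.29 and 0.18, so the block bins lay within the range of their surroundings. When the trend of each library on enrichment over input was removed, an alternative added after the data were seen, the male values were -0.17 (adjusted p = 0.149) and -0.09 (adjusted p = 0.422), so that neither call held. The call in the first block bin was also lost without replicate 2 of male KO or of male WT in gH2AX, and without male KO replicate 2 or male WT replicate 1 in H2AX (adjusted p between 0.0768 and 0.268). The part of such library-wide differences in the ratio was not tested further.

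**Figure D4:**
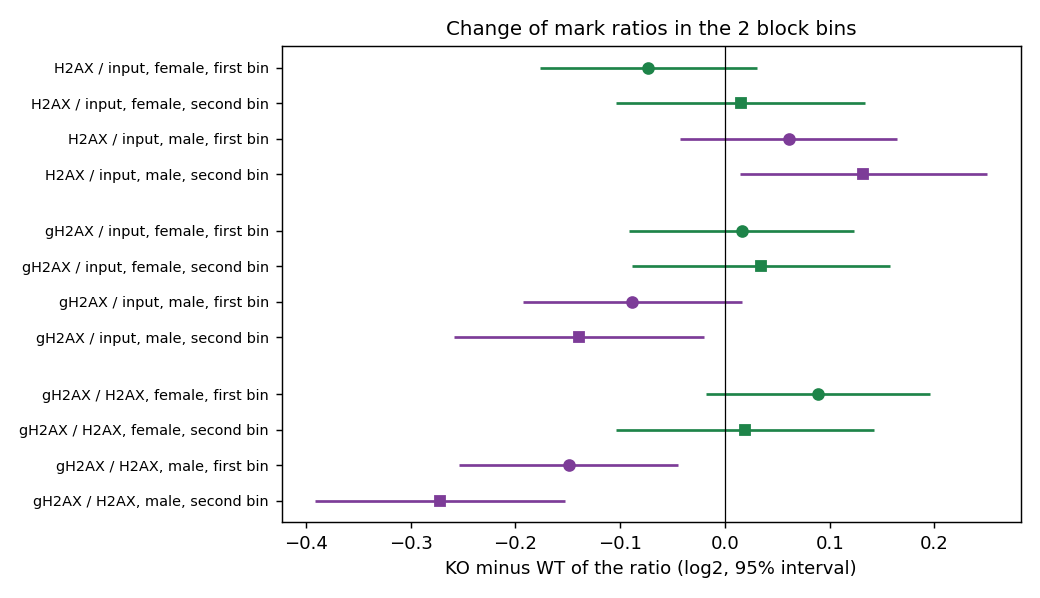
KO minus WT change of 3 ratios between assays (log2, x axis) with 95% intervals, in the first (circles) and second (squares) block bin of female (green) and male (purple) MEFs (rows). In male cells gH2AX over H2AX stands at -0.15 and -0.27, while the female values of all 3 ratios lie between -0.07 and 0.09.

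Relative to input within a group, the second block bin had H2AX at or below the input level and gH2AX below it. H2AX over input was 0.01 ± 0.04 in male KO and -0.13 ± 0.04 in male WT cells, and -0.05 ± 0.04 in female KO and -0.06 ± 0.04 in female WT cells (log2 ± SE). gH2AX over input was -0.27 ± 0.04 in male KO and -0.13 ± 0.04 in male WT cells, and -0.13 ± 0.04 in female KO and -0.16 ± 0.04 in female WT cells. The male KO value of gH2AX lay at the 9.97th percentile of all bins of its group, and the male WT value at the 16.6th. The female KO and female WT values lay at percentiles 22.2 and 23.6. Such low values were not particular to the block. The last bin of the window (chr19:39700001-39800000) lay lower, at percentile 1.16 in male KO and 5.08 in male WT cells.

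Cyp2c38 and Cyp2c39 lie mostly beyond the block and are described by the bins they fill. The bin after the block (chr19:39400001-39500000) holds 85.8% of Cyp2c38 and 45.0% of the annotated span of Cyp2c39. It had 33.3 and 35.8 CPM of H2AX in male KO libraries, against 31.7 and 32.7 CPM in male WT libraries. Its male changes were 0.09 ± 0.04 for H2AX (edgeR, adjusted p = 0.54), 0.04 ± 0.04 for gH2AX (adjusted p = 0.474) and 0.08 ± 0.04 for input, and its female changes were 0.01 ± 0.04, 0.03 ± 0.04 and 0.01 ± 0.04 (adjusted p = 0.99 for H2AX and 0.769 for gH2AX).

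The next bin (chr19:39500001-39600000) holds the proximal start and the end of Cyp2c39. For H2AX it had 34.4 and 37.0 CPM in male KO libraries, against 31.1 and 31.4 CPM in male WT libraries, with no overlap. H2AX rose there by 0.19 ± 0.04 (edgeR, adjusted p = 0.00513), while gH2AX fell by 0.10 ± 0.04 (adjusted p = 0.033), with 30.2 and 28.8 CPM in male KO libraries against 31.1 and 32.2 CPM in male WT ones. Input changed by 0.09 ± 0.04. The H2AX call did not hold without male KO replicate 2 (0.14, adjusted p = 0.32), without male WT replicate 1 (0.18, adjusted p = 0.226) or without male WT replicate 2 (0.19, adjusted p = 0.172). The gH2AX call did not hold without replicate 2 of male KO (-0.07, adjusted p = 0.338) or of male WT (-0.08, adjusted p = 0.214), in DESeq2 (-0.10, adjusted p = 0.0646) or with the enrichment trend removed (-0.01, adjusted p = 0.952).

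The other genes of the window and of the family showed smaller H2AX changes. Tbc1d12 and Hells, a chromatin remodelling ATPase, share the first bin of the window, where H2AX changed by -0.07 ± 0.04 (adjusted p = 0.651) and gH2AX rose by 0.11 ± 0.04 (adjusted p = 0.0129) in male KO over male WT. The bin of Cyp2c55 and Cyp2c65 changed by 0.02 ± 0.04 for H2AX (adjusted p = 0.944), that of Cyp2c66 by 0.13 ± 0.04 (adjusted p = 0.126), that of Cyp2c67 by 0.04 ± 0.04 (adjusted p = 0.874) and that of most of Cyp2c68 and Cyp2c40 by 0.00 ± 0.04 (adjusted p = 0.997), in the same edgeR test. In the Cyp2c68 and Cyp2c40 bin gH2AX fell by 0.17 ± 0.04 (adjusted p = 4.2e-04). The 15 annotated Cyp2c genes had their main bodies in 10 bins, of which 1, that of Cyp2c29, was called higher for H2AX in male KO, beside 0.105% of all bins. For gH2AX 2 of the 10 were called higher and 1 lower, no larger a share than the 22.4% of all bins called higher and 22.2% called lower. The median male change over these 10 bins was 0.05 for H2AX and -0.02 for gH2AX, beside 0.00 and -0.01 over all bins. Of 33 bins of 41 genes in the Cyp2a, Cyp2b, Cyp2d, Cyp2j, Cyp3a and Cyp4a clusters, 1 was called higher and 13 lower for gH2AX in male KO, with a median of -0.07, beside the same 22.4% and 22.2% of all bins. The H2AX median of those 33 bins was 0.00.

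Compared were 160 autosomal bins whose input groups spanned at least 0.13 on the log2 scale. Those whose input correlated most with that of the block over the 8 input libraries lay mainly on the same chromosome. Pearson's r with the mean of the block bins was 0.977 for chr19:36900001-37000000 (Fgfbp3, Btaf1), 0.971 for chr19:37200001-37300000 (Cpeb3, Marchf5, Ide) and 0.968 for chr19:37300001-37400000 (Ide, Kif11). The next were chr19:21900001-22000000, with no protein-coding gene (0.941), and chr2:155000001-155100000 with Ahcy (0.899). These r values over 8 libraries are descriptions, and the points share the libraries. In male KO over male WT cells the Ide and Kif11 bin changed by 0.50 for H2AX, 0.61 for gH2AX and 0.51 for input, and the Fgfbp3 and Btaf1 bin by 0.42, 0.43 and 0.39 for the same assays. In these bins the gH2AX change was thus above that of input. In the second block bin it stood at 0.21 beside 0.34 in input, a contrast that was not tested. Under the alternatives in processing, the male gH2AX change of the second block bin ran from 0.17 to 0.30. The Ide and Kif11 bin and the Fgfbp3 and Btaf1 bin were not examined under those alternatives. A gH2AX change below that of input was not particular to the block, since male gH2AX over input reached -0.20 in the bins around it.

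**Figure D5:**
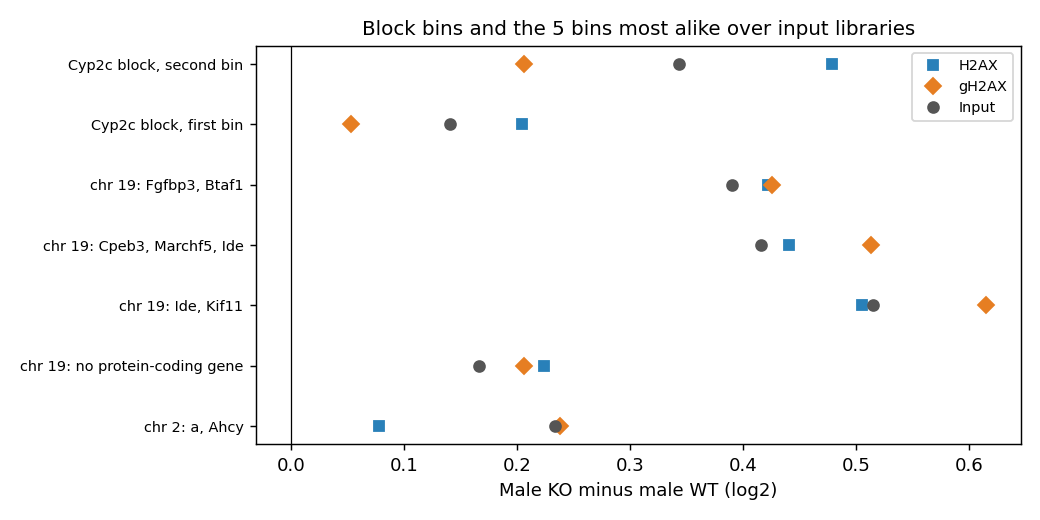
Male KO minus male WT change (log2, x axis) of H2AX (squares), gH2AX (diamonds) and input (circles). Rows are the 2 block bins and 5 bins elsewhere, with their genes. The 5 bins were those whose input correlated most with that of the block over the 8 input libraries. In the block bins gH2AX lies left of input and H2AX right of it (0.21, 0.34 and 0.48 in the second bin).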

How the data were processed

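The authors deposited raw read counts per 100 kb bin of mm10, 1 column per library, with starts counted from 0 (from 1 in the text). The submitters' processing notes name Bowtie2 2.2.9, Trimmomatic 0.36, MACS2 2.2.7.1, FastQC 0.11.3, deepTools 2.4.2 and SAMtools 0.1.19, and the handling of duplicates is not given in the sources used here. A further 24 columns matched no labelled sample and were not used. Between replicates chi-square over its degrees of freedom ran from 2.59 to 3.87, above counting error.

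edgeR 4.0.16 in R 4.3.3 (glmQLFit, glmQLFTest, filterByExpr, TMM factors from autosomal bins) fitted 1 mean for each group, per antibody or, for ratios between assays, over all 24 libraries. SE is the fitted change over the root of F, intervals are 1.96 SE, and p-values were Benjamini-Hochberg adjusted over all bins tested, with calls at 0.05. The procedure was tested on simulated data with a constant spread and no library-wide trend on enrichment. That test can therefore not speak for calls that depend on such a trend. Genes and starts came from RefSeq GRCm38.p6. Named by rule were the 3 genes, all protein-coding genes of the window, the Cyp2c family and other P450 clusters as lists, and the 5 bins most alike in input. Genes, block and lists were chosen with earlier results of these data known. Alternatives comprised DESeq2 1.42.0, other scalings and filters, a replicate block, omitted libraries and, added after the data were seen, taking out, per library, the trend of its levels on enrichment over input.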

Additional observations from a re-analysis of the deposited data

Results flagged for a closer look

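Changes between KO and WT differed between the sexes by the test of that difference at 3 points of the Cyp2c block. For H2AX in the second block bin, with most of Cyp2c29, the female change minus the male change was -0.49, with both male KO libraries above all others. For H2AX in the first block bin it was -0.22. For gH2AX in the second block bin it was -0.19. In input the same difference was -0.36 in the second block bin and -0.09 in the first. How far the differences in the marks go with that of input was not tested.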

How the results depend on the processing

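In the second block bin the male KO rise of H2AX (0.43 to 0.55 without 1 library) and of gH2AX (0.18 to 0.23), the lower male gH2AX to H2AX ratio (-0.34 to -0.22) and the sex difference of the H2AX change (-0.55 to -0.44) kept their calls whenever a library was left out. Elsewhere calls were lost without 1 library, over ranges of 0.17 to 0.26 for the male H2AX rise in the first block bin, -0.28 to -0.18 for its sex difference, -0.23 to -0.15 for that of gH2AX in the second, -0.22 to -0.087 for the male gH2AX to H2AX ratio in the first, and -0.13 to -0.11 (KO) and -0.20 to -0.074 (WT) for female minus male gH2AX in the first. DESeq2 ended 2 calls in the first block bin, the sex difference of the H2AX change (-0.23) and female minus male gH2AX in KO (-0.12). Library sizes from chromosome 19 ended that gH2AX call too (-0.092) and the sex difference of gH2AX in the second bin (-0.14). Removing the enrichment trend ended the male gH2AX to H2AX calls (-0.17 in the second and -0.095 in the first bin) and female minus male gH2AX in WT in the first bin (-0.10), moved the untested male gH2AX over input in the second bin to -0.040, and left 448 bins called for male gH2AX, against 11481 without it. As a share of chromosome 19 reads the male input ratio of the first bin was 1.10. The cause was not tested. Within an assay, replicate numbers showed little sign of pairing libraries between groups (correlations of deviations between -0.0308 and 0.0627). Whether they pair input, H2AX and gH2AX libraries was not examined. A replicate block changed the outcome of 0 of 24 tests, with 0.49 for the male H2AX rise in the second block bin. TMM factors that include X and no filter on low counts also changed none of the 24. None of the 13 called values changed sign under any alternative or omitted library, whereas 8 of the 11 tested values that were not called and 3 of the 8 untested ratios to input did under at least 1.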
